A study of Homo sapiens with 4 samples.

Results

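The 10 genes described here encode 6 matrix metalloproteinases (MMPs) that lie outside the MMP cluster of chromosome 11q22 (MMP2, MMP9, MMP11, MMP14, MMP15 and MMP28) and all 4 tissue inhibitors of metalloproteinases (TIMP1, TIMP2, TIMP3 and TIMP4). They were taken by gene name from a table of 58735 genes. The table holds RNA-seq read counts of HCC1954, an established HER2-amplified human breast cancer cell line. Control cells carrying a scrambled short hairpin (shCON, 2 samples) were compared with cells carrying a hairpin against the palmitoyltransferase gene ZDHHC15 (shZDHHC15, 2 samples). All samples received GIPZ lentiviral plasmids, and the methods of the study mention that single-clone cultures were screened for the hairpins. The labels speak of a stable knockdown in one place and of a transient transfection harvested after 36 h in another. They do not say whether shZDHHC15 samples 1 and 2 are repeat cultures or different hairpins, so p-values measure the spread between these samples, which may be technical. If the samples of each group came from a single clone, a difference between clones could not be told apart from the knockdown.

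MMPs are zinc endopeptidases that are made as inactive precursors and cut collagens, laminins, other matrix proteins and cell surface proteins. TIMPs bind the active site of MMPs and block it, and TIMP2 also forms a bridge that holds pro-MMP2 at the membrane-anchored MMP14, which activates it. The gelatinases MMP2 and MMP9 are widely followed in breast cancer because they cut basement membrane collagen. The study followed their proteins as readouts of invasion. It reported lower levels of both proteins after ZDHHC15 knockdown in cell lines including HCC1954, while only RNA was counted here. The question here was which transcripts of these enzymes and inhibitors differed between shCON and shZDHHC15 cells.

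The libraries held between 17560982 and 19118704 counts. ZDHHC15 itself had 17617 and 15716 counts in shCON and 0 and 0 counts in shZDHHC15, at least 6045-fold lower against a floor of 3 counts per library. Epithelial markers were abundant in every sample (all 10 of 10 tested), with summed levels in CPM (counts scaled to a library of 1000000) of 17600 and 18950 in shCON and 10650 and 10710 in shZDHHC15. Of these, 6 were called lower, including KRT8 and KRT18, where 20.3% of all tested genes were lower. KRT19 was called higher, where 21.7% of all tested genes were higher, and CDH1, ESRP1 and ELF3 had no call. KRT8 and KRT18 share 525 exon bases on opposite strands, so their 2 calls are not fully separate. Of 10 fibroblast markers, 6 were at or under 3 counts in every sample, and LUM was at 0 throughout. The summed fibroblast level was 33.5 and 26.4 CPM in shCON and 41.0 and 37.1 CPM in shZDHHC15, nearly all of it FAP and COL1A1. Leukocyte markers summed to 9.65 and 11.4 CPM in shCON and 6.02 and 7.29 CPM in shZDHHC15, with CD3E and MS4A1 at 0, and PTPRC never above 4 counts. Of the leukocyte markers 2 were tested, and CSF1R was lower (log2 fold change -1.06) and CD14 higher (1.61). CD14 had 9 and 5 counts in shCON and 25 and 22 in shZDHHC15, enough for testing only in shZDHHC15. Endothelial markers summed to 57.7 and 57.7 CPM in shCON and 108 and 102 CPM in shZDHHC15. PECAM1 had 75 and 56 counts in shCON and 666 and 405 in shZDHHC15 (log2 fold change 2.91). CDH5 was also higher (log2 fold change 0.65), KDR was lower (-0.64) and VWF was never above 7 counts. The part of these shifts in the results below was not tested. Fewer expressing cells and less RNA per cell cannot be told apart in bulk RNA.

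The 6 MMPs share the catalytic zinc site, a stretch of 33 coding bases that encodes 3 zinc-binding histidines and the catalytic glutamate. It is shown because it is the feature that the 6 enzymes have in common. The stretches were cut from GENCODE release 29 coding sequences on GRCh38 and run 5′ to 3′, with the codons of the 3 histidines and the glutamate in capitals.
MMP2 (chr16:55491827-55491859, plus strand, exon 8): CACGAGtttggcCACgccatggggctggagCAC
MMP9 (chr20:46012453-46012485, plus strand, exon 8): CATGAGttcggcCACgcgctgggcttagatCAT
MMP11 (chr22:23780885-23780917, plus strand, exon 5): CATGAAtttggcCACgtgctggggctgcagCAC
MMP14 (chr14:22843283-22843315, plus strand, exon 5): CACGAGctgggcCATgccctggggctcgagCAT
MMP15 (chr16:58040563-58040595, plus strand, exon 5): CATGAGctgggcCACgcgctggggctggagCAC
MMP28 (chr17:35770167-35770199, minus strand, exon 5): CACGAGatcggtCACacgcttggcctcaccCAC
Only 15 of the 33 positions were the same in all 6 genes, and pairs of genes shared between 20 and 28 of 33 bases. Over whole exon sequences the longest stretch shared by any pair of the 10 genes was 23 bases, between MMP2 and MMP9, and the next was 21 bases, between TIMP2 and TIMP4. Apart from MMP11, none shared a 50-base stretch with a gene elsewhere in the genome.

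Per length of all annotated exons of a gene together, TIMP2 and TIMP1 stood above the 6 enzymes in every sample. TIMP2, which blocks MMPs and bridges pro-MMP2 to MMP14, had the highest level, 50.5 ± 3.88 CPM per kilobase (kb) in shCON and 44.6 ± 2.62 in shZDHHC15 (SD, n = 2). TIMP1, a secreted inhibitor that binds pro-MMP9, followed with 35.1 ± 1.75 and 28.5 ± 1.58 CPM per kb. The membrane-anchored MMP15 was the most abundant of the 6 enzymes at 18.0 ± 1.59 and 15.3 ± 0.835 CPM per kb. MMP2 came next with 4.45 ± 0.221 and 7.73 ± 0.0936 CPM per kb, then MMP14 with 2.22 ± 0.510 and 1.75 ± 0.0320, and MMP9 with 0.435 ± 0.149 and 0.202 ± 0.0392. This order was the same in both groups, and each gene lay above the next in every sample, with the exception that MMP9 and MMP28 overlapped in shZDHHC15. Among 15817 tested genes, mean per-length levels in shCON placed TIMP2 at percentile 93.4, TIMP1 at 90.5, MMP15 at 81.9, MMP2 at 54.6, MMP14 at 40.8 and MMP9 at 14.8. In shZDHHC15 the percentile of MMP2 was 65.6 and that of MMP9 was 5.4.

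**Figure D1:**
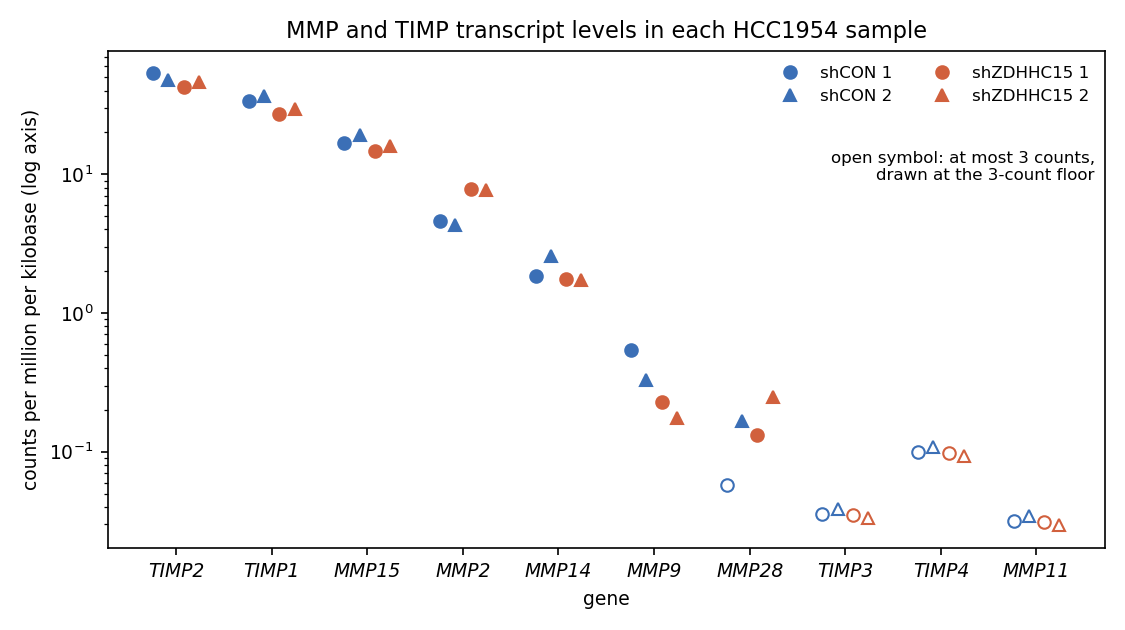
Transcript level of each gene (x axis) in CPM per kb on a log axis (y axis), 1 symbol per sample, blue for shCON and orange for shZDHHC15, with open symbols at the 3-count floor where a sample had at most 3 counts. TIMP2 and TIMP1 lie highest, MMP2 is the only gene of the 6 tested whose orange symbols both lie above the blue ones, and TIMP3, TIMP4 and MMP11 stay at the floor in all 4 samples.

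Of the 10 genes, 6 had enough counts to be tested (MMP2, MMP9, MMP14, MMP15, TIMP1 and TIMP2), and MMP9 passed that filter only through its shCON samples. By edgeR's quasi-likelihood test, at a Benjamini-Hochberg adjusted p under 0.05 over all 15817 genes, 1 of the 6 was higher in shZDHHC15 (MMP2), where 21.7% of all genes were higher. Likewise 1 of the 6 was lower (TIMP1), where 20.3% of all genes were lower. Both shares are near the background and are not a result about the 10 genes as a set. The groups did not overlap for any of the 6, which was so for 72.5% of all tested genes.

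MMP2, the gelatinase that cuts type IV collagen and denatured collagens (ENSG00000087245, chr16:55389700-55506691, plus strand), was counted 414 and 357 times in shCON and 716 and 742 times in shZDHHC15. Both knockdown samples lay well above both controls, and the samples within a group lay close together. Mean levels were 21.9 ± 1.09 CPM in shCON and 38.1 ± 0.462 CPM in shZDHHC15 (SD, n = 2), a 1.74-fold rise. The log2 fold change was 0.80 (SE 0.119, 95% interval 0.54 to 1.05), with an adjusted p of 9.1e-05 by edgeR's quasi-likelihood test. The call held without each of the 4 samples in turn and in every other fit, with log2 values from 0.74 to 0.87. A short gene on the same strand, AC007336.3, shares 174 of the 4933 exon bases of MMP2 and was at 0 counts in every sample.

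MMP9, the other gelatinase (ENSG00000100985, chr20:46008908-46016561, plus strand), was close to the limit of detection. It had 23 and 13 counts in shCON and 10 and 8 counts in shZDHHC15. The control samples were both higher, but shCON 1 lay farther from shCON 2 than shCON 2 lay from shZDHHC15 1. The log2 fold change was -1.11 with a wide 95% interval from -2.17 to -0.05, and the adjusted p was 0.0864 by edgeR's quasi-likelihood test, so no change was detectable at this depth. MMP9 shares 430 of its 2336 exon bases with SLC12A5-AS1 on the opposite strand, which had 6, 6, 4 and 8 counts. The library kit does not mark strand, so reads from the shared bases cannot be told apart.

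MMP14, the membrane-anchored collagenase that activates pro-MMP2 (ENSG00000157227, chr14:22836557-22849027, plus strand), had 151 and 194 counts in shCON and 147 and 151 counts in shZDHHC15. Of the controls, shCON 1 was close to the knockdown samples and shCON 2 stood above the other three samples. The log2 fold change was -0.34 (SE 0.191, 95% interval -0.75 to 0.07) with an adjusted p of 0.172 by edgeR's quasi-likelihood test. The value depended on the control samples, at -0.59 without shCON 1 (adjusted p 0.0156) and -0.10 without shCON 2.

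MMP15, a membrane-anchored relative of MMP14 (ENSG00000102996, chr16:58025566-58046901, plus strand), had 1356 and 1422 counts in shCON and 1210 and 1378 counts in shZDHHC15. After scaling for library size, both control samples lay above both knockdown samples, at 79.3 ± 7.02 against 67.6 ± 3.69 CPM (SD, n = 2). The log2 fold change was -0.23 (SE 0.105, 95% interval -0.46 to -0.01), and the adjusted p of 0.0936 by edgeR's quasi-likelihood test missed the limit. Without shCON 1 it was -0.35 with an adjusted p of 0.0084, without shCON 2 -0.15 (0.347) and without shZDHHC15 1 -0.18 (0.416). Neither MMP14 nor MMP15 shares exon bases with another annotated gene.

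MMP28 and MMP11 could not be tested. MMP28, a secreted enzyme of epithelia (ENSG00000271447, chr17:35756249-35795707, minus strand), had 3 and 8 counts in shCON and 7 and 14 counts in shZDHHC15, and the groups overlapped. It lies inside the span of TAF15 on the opposite strand, which had between 2127 and 3561 counts, but the 2 genes share no exon bases. MMP11, stromelysin-3, an enzyme best known from fibroblasts around tumours (ENSG00000099953, chr22:23768226-23784316, plus strand), had 0 counts in all 4 samples. The 3 counts that an observed 0 still permits equal 0.153 to 0.178 CPM in these libraries, a limit for counting error only.

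Among the inhibitors, TIMP1 (ENSG00000102265, chrX:47582313-47586789, plus strand) had 952 and 945 counts in shCON and 785 and 895 counts in shZDHHC15. Both knockdown samples were lower, and shZDHHC15 2 lay nearer to the controls. Mean levels were 54.1 ± 2.69 and 43.9 ± 2.43 CPM (SD, n = 2), 0.811-fold of the control with a 95% interval of 0.691 to 0.952. The log2 fold change was -0.30 (SE 0.108) with an adjusted p of 0.0357 by edgeR's quasi-likelihood test. The call did not hold without shCON 2 (adjusted p 0.093), without shZDHHC15 1 (0.258) or without shZDHHC15 2 (0.0734), and it was also lost with DESeq2 (0.0628). TIMP1 lies in an intron of SYN1 on the opposite strand, which had at most 4 counts in a sample.

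TIMP2 (ENSG00000035862, chr17:78852977-78925387, minus strand), the most abundant of the 10 genes, had 5473 and 4542 counts in shCON and 4481 and 5134 counts in shZDHHC15. Scaled for library size, the groups lay next to each other without overlap, at 285 ± 21.9 and 251 ± 14.8 CPM (SD, n = 2). The log2 fold change was -0.18 (SE 0.0941, 95% interval -0.38 to 0.02) with an adjusted p of 0.137 by edgeR's quasi-likelihood test. Without shCON 2 it was -0.27 with an adjusted p of 0.0268, without shCON 1 -0.13 (0.313) and without shZDHHC15 1 -0.12 (0.558). The exons of TIMP2 overlap those of CEP295NL, which had at most 8 counts, by 198 bases, and those of AC022966.1, at 0 counts, by 367 bases.

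TIMP3, the matrix-bound inhibitor that also blocks ADAM17 (ENSG00000100234, chr22:32801701-32863043, plus strand), had 1 and 0 counts in shCON and 0 and 1 counts in shZDHHC15. TIMP4 (ENSG00000157150, chr3:12153051-12159351, minus strand) had 0 and 0 counts in shCON and 1 and 0 in shZDHHC15. Both stayed under the 3-count floor in every sample, so the edgeR test left them out and no comparison is drawn. DESeq2 called neither. Their host genes were as low, with at most 1 count for SYN3 around TIMP3 and at most 1 count for SYN2 around TIMP4.

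The promoters of TIMP1, the inhibitor that passed the test, and of TIMP3, an inhibitor that stayed at the floor, are shown to set an abundant family member beside one that was not detected. The sequences are the 250 bases before the start site, from RefSeq on GRCh38.p14. This start lay 123 bases inside the counted gene for TIMP1 and 4 bases inside for TIMP3. The end of each stretch, with the TGAGTAA of TIMP1, thus lies within the gene as counted. Capitals mark GC boxes (GGGCGG, or CCGCCC on the other strand) and, in TIMP1, the AP-1 related heptamer TGAGTAA.
TIMP1 (chrX:47582186-47582435, plus strand): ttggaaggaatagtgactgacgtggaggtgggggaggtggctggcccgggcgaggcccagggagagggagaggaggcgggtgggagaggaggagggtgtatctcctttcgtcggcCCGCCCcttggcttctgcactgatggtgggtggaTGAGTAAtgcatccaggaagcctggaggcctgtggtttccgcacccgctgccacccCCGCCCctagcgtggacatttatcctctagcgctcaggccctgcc
TIMP3 (chr22:32801455-32801704, plus strand): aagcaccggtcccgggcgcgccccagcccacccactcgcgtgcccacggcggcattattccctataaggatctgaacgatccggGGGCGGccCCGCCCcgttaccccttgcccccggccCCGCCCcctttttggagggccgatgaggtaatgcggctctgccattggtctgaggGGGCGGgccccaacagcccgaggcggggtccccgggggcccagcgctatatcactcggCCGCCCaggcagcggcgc
A RefSeq promoter was matched for 6 of the 10 genes (MMP11, MMP14, MMP15, TIMP1, TIMP3 and TIMP4). The MMP11 start lay 4623 bases inside the counted gene. In the window from 250 bases before to 50 after the start, TIMP1 held 2 GC boxes and 1 TGAGTAA at position -101, with 16 CG dinucleotides. TIMP3 held 5 GC boxes and 31 CG dinucleotides, where the median of 35116 promoters was 14. On either strand, 45.0% of all promoters held GGGCGG and 2.57% held TGAGTAA. None of the 6 windows held the AP-1 site TGAGTCA, present in 4.95% of promoters, or the TEAD core GGAATG, present in 14.0%. These matches describe letters and not sites in use.

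**Figure D2:**
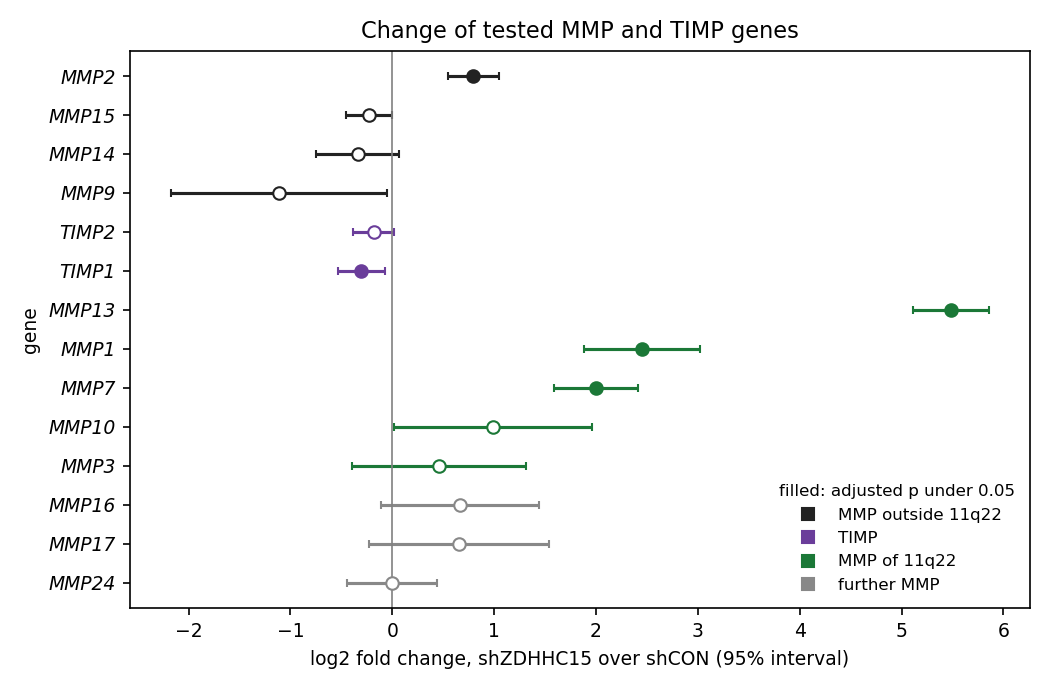
Log2 fold change of shZDHHC15 over shCON (x axis) for every tested MMP and TIMP gene (y axis), with 95% intervals from edgeR and filled symbols for an adjusted p under 0.05. MMP2 at 0.80 and TIMP1 at -0.30 are the filled symbols outside 11q22, and MMP13 at 5.48 lies farthest to the right.

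The MMPs of the 11q22 cluster were set beside these genes. Of 9 cluster genes, 5 were tested by edgeR and 3 were higher, where 21.7% of all genes were, with a median log2 fold change of 2.00. None was lower, with 0 lower at an unadjusted p under 0.05 and 0 lower by DESeq2. MMP13, a collagenase, had 103 and 109 counts in shCON and 5879 and 4437 counts in shZDHHC15, a log2 fold change of 5.48. MMP1, the interstitial collagenase, changed by 2.45, and MMP7, matrilysin, by 2.00 on the log2 scale. MMP1 shares 150 exon bases with WTAPP1, which had at most 3 counts. Of 9 further MMPs outside that cluster, 3 were tested (MMP16, MMP17 and MMP24), with 0 higher and 0 lower by edgeR's quasi-likelihood test, 0 at an unadjusted p under 0.05 and 0 by DESeq2. MMP24, a membrane-anchored enzyme, had 93 and 94 counts in shCON and 95 and 109 in shZDHHC15. It shares 799 of its 4414 exon bases with MMP24OS on the opposite strand, which had 349 and 350 counts in shCON and 236 and 224 in shZDHHC15, and reads from those bases cannot be told apart. Whether MMP2 differed in response from the cluster genes was not tested.

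As a share of the summed per-length level of all 24 MMP genes, the 6 enzymes outside 11q22 made up 77.0% and 77.3% in shCON and 16.3% and 21.5% in shZDHHC15. Their own sum was 23.9 and 26.4 CPM per kb in shCON and 24.6 and 25.7 in shZDHHC15, and the groups overlapped. The pool of all 24 went from 31.0 and 34.2 to 152 and 120 CPM per kb, and MMP13 alone was 73.5% and 66.7% of it in shZDHHC15. Within the 6 enzymes, MMP2 made up 19.3% and 16.2% in shCON and 31.6% and 29.8% in shZDHHC15. MMP15 made up 70.5% and 72.2% in shCON and 59.7% and 61.8% in shZDHHC15, and so remained the largest part of that sum in all 4 samples. The division between the inhibitors was similar in both groups, with TIMP2 at 61.1% and 56.8% of TIMP transcripts in shCON and 60.9% and 61.1% in shZDHHC15. These shares are descriptions of 4 samples and were not tested.

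**Figure D3:**
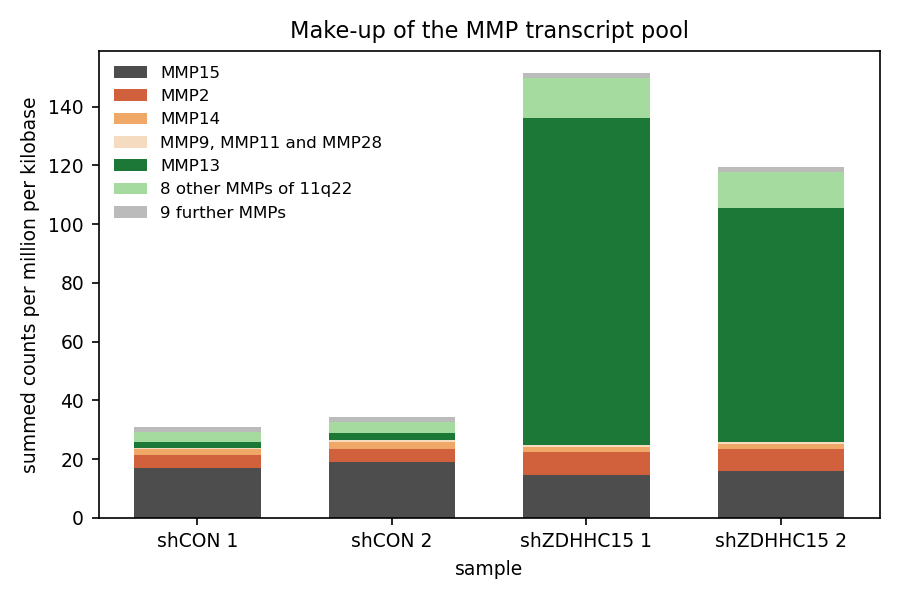
Summed MMP transcript level in CPM per kb (y axis) in each of the 4 samples (x axis), stacked by gene or gene group. The dark and orange parts at the bottom, the 6 MMPs outside 11q22, sum to between 23.9 and 26.4 in all samples, while the green MMP13 part grows from about 2 to 111 and 79.8.

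Ratios taken within each sample set an enzyme against an inhibitor it works with. The ratio of MMP2 to TIMP2 per length was 0.0865 and 0.0899 in shCON and 0.183 and 0.165 in shZDHHC15. The knockdown samples were both higher, by 0.98 on the log2 scale (exact permutation p = 0.33, two-sided, the smallest value that 2 against 2 samples allow). MMP9 over TIMP1 was 0.0161 and 0.0092 in shCON and 0.0086 and 0.0061 in shZDHHC15, a log2 difference of -0.76 (exact permutation p = 0.33). For MMP14 over TIMP2 the groups overlapped, with a difference of -0.14 (exact permutation p = 1.0) that became -0.46 without shCON 1 and turned to 0.17 without shCON 2. All 6 enzymes over all 4 inhibitors gave 0.274 and 0.314 in shCON and 0.351 and 0.338 in shZDHHC15, a difference of 0.23 (exact permutation p = 0.33). With 2 samples a group no such ratio could reach an exact p under 0.05.

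**Figure D4:**
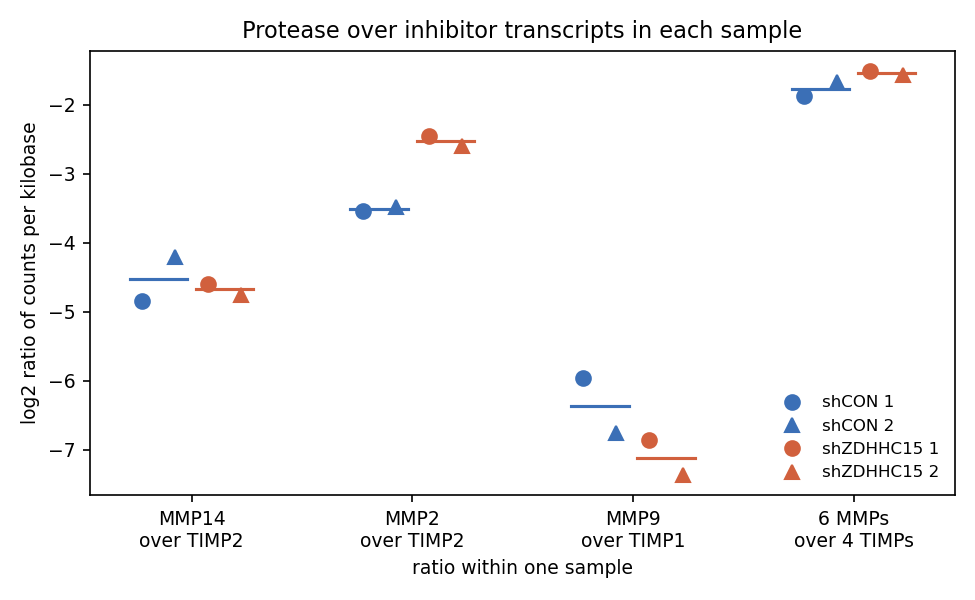
Log2 ratio of enzyme to inhibitor transcripts per kilobase (y axis) for 4 ratios (x axis), 1 symbol per sample and a line at each group mean. MMP2 over TIMP2 lies near -3.5 in both shCON samples and between -2.45 and -2.60 in the shZDHHC15 samples, while MMP14 over TIMP2 overlaps between the groups.

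Among genes that activate MMPs or restrain them and their activators, some were higher and some lower. Of 23 such genes, 19 were tested, 4 were higher (21.7% of all genes were) and 8 lower (20.3% of all genes), and 7 passed no test, with a median log2 fold change of -0.14 against 0.02 over all genes. SERPINE2, protease nexin-1, rose from 538 and 471 counts to 5854 and 5592 counts (log2 fold change 3.38). The plasminogen activators themselves went opposite ways, with PLAT, the tissue type, higher by 1.80 and PLAU, the urokinase type, at -0.93. TFPI2, a Kunitz inhibitor of the matrix, was lower at -0.70, and PCSK6, a proprotein convertase, was higher at 1.04. FURIN, the convertase that cuts pro-MMP14, and RECK, a membrane inhibitor of MMPs, passed no test. FURIN had 2453 and 2419 counts in shCON and 2550 and 2764 in shZDHHC15, and RECK had 106 and 132 against 131 and 104. PLAU shares 916 of its 2950 exon bases with C10orf55, which had at most 21 counts. TFPI2 and PCSK6 also overlap other genes, with at most 29 counts for any of them.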

How the data were processed

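RNA-seq was analysed in 4 HCC1954 samples, 2 per group, grouped by their titles. The authors deposited 1 table of raw counts per gene for 58735 genes. The submitters' processing notes name HISAT2, StringTie, SAMtools and hg38, without their roles. The counting tool and its strand setting are not given in the sources used here. All 58735 identifiers matched GENCODE release 29 in start, end and symbol. Per-length levels used the table's gene lengths. For all 58735 genes these equal the joined exons of every annotated transcript, which can be longer than any single transcript. Orders, shares and ratios per length depend on these lengths.

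Low genes were removed with filterByExpr. Tests used R 4.3.3 with limma 3.58.1 and edgeR 4.0.16, with TMM factors, quasi-likelihood F-tests and Benjamini-Hochberg adjustment. CPM values were scaled by TMM factors. Ratios used a pseudocount of 0.1 counts per kb. The fits were tested on simulated data. Alternatives were DESeq2 1.42.0 (size factors and Wald test), library size only, other filters, the legacy dispersion, a replicate block and leaving out each sample.

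The genes and lists were chosen with earlier results of these data known. Named genes were the 10 genes, their host or overlapping genes, ZDHHC15, and up to 3 largest rises and 3 largest falls per list with an adjusted p under 0.05 and 20 or more counts on average in the higher group. One such gene is not reported here. FURIN, RECK, MMP24 and the cell type markers were named after their values were seen.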

Additional observations from a re-analysis of the deposited data

How the results depend on the processing

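MMP2 passed the test in each fit run, and no fold change of the 6 tested genes reversed. The 1 gene called lower, TIMP1, was lost with library size only (0 genes called lower, TIMP1 at -0.23), the DESeq2 Wald test (0 genes, -0.32) and no filter on low counts (0 genes, -0.32), where genes called higher over all fell to 2282. With library size only, the median of all genes was 0.09 in place of 0.02. Over the fits that leave out 1 sample, log2 fold changes ranged from 0.74 to 0.82 for MMP2, -1.42 to -0.73 for MMP9, -0.59 to -0.10 for MMP14, -0.35 to -0.15 for MMP15, -0.38 to -0.25 for TIMP1 and -0.27 to -0.12 for TIMP2. Between 0 and 3 of the 10 genes were called lower and 1 higher, with 2524 to 3406 genes higher and 2201 to 3476 lower over all. In these fits the lone sample of a group is assumed to vary like the other group. MMP9 could not be tested at a minimum of 10 counts in every sample. Differences of log2 ratios ranged from 0.91 to 1.05 for MMP2 over TIMP2, -1.16 to -0.35 for MMP9 over TIMP1, -0.46 to 0.17 for MMP14 over TIMP2 and 0.13 to 0.33 for all enzymes over all inhibitors. The deviations of samples with the same number correlated at 0.102 over 13835 genes, which cannot settle whether these samples were paired. With the replicate block 2 of the 10 genes were called lower, as MMP15 (-0.23) then had an adjusted p of 0.0434, and 3723 genes were higher and 3502 lower in all. The causes of these changes were not tested.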

Other observations

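The ADAM and ADAMTS genes encode metalloproteinases related to the MMPs. Of 30 ADAM and ADAMTS genes, 21 were tested by edgeR's quasi-likelihood test, 10 were higher (21.7% of all genes were) and 3 lower (20.3% of all genes) in shZDHHC15, and 8 had no call, with a median log2 fold change of 0.51 against 0.02 over all genes. ADAMTS4, an aggrecanase, had 3 and 1 counts in shCON and 53 and 36 in shZDHHC15, a ratio of 20.4 with an exact Clopper-Pearson 95% counting interval of 7.70 to 76.6. ADAMTS10 had 8 and 4 counts in shCON and 31 and 43 in shZDHHC15 (2.48 on the log2 scale). ADAM22 was higher by 1.24. ADAMTS1, which cuts versican and aggrecan, went from 118 and 100 counts to 26 and 26 (-2.19). ADAMTS6 had 82 and 38 counts in shCON and 7 and 5 in shZDHHC15 (-3.41), and ADAMTS17 was at -1.54. ADAMTS4, ADAMTS10 and ADAMTS6 passed the count filter only through the group where they were high. ADAM17, the sheddase that TIMP3 blocks, had 638 and 677 counts in shCON and 1224 and 1162 in shZDHHC15, though it shares exon bases with IAH1 on the opposite strand.

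Of 44 matrix proteins and receptors that MMPs cut or bind, 31 were tested, 12 were higher and 4 lower, against the same 21.7% and 20.3% of all genes, and 15 had no call, with a median log2 fold change of 0.32. SPP1, osteopontin, had 2 and 3 counts in shCON and 100 and 77 in shZDHHC15, a ratio of 32.5 with an exact 95% counting interval of 13.7 to 101. SPP1 passed the count filter only through shZDHHC15. COL4A1 and COL4A2, the main chains of basement membrane collagen, were higher by 2.89 and 1.17. The COL4A2 call was lost with the DESeq2 Wald test (adjusted p 0.0572) and without shZDHHC15 1 (0.0845). FN1, fibronectin, had 34528 and 27912 counts in shCON and 49620 and 43798 in shZDHHC15. The matricellular genes CYR61 (CCN1), CTGF (CCN2) and THBS1 were lower, at -2.79, -2.36 and -2.35. CTGF and THBS1 overlap antisense genes with at most 12 counts. ADAM17 and FN1 were named after their values were seen.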
